A study of Mus musculus with 12 samples.

Results

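Of 12 liver arrays, the 4 whose sample labels end in the number 1 were compared with the 8 whose labels end in 2 or 3. The members were chosen by that number alone. Set 1 holds 1 array from each of 4 groups, mTERT KO and its WT and mTR KO and its WT, and a term for the group was fitted, so that the comparison gives the distance between the first set of mice and the other two sets after the mean of each group is taken out. Each array measured total RNA from the liver of 1 male C57BL/6J mouse. Telomerase lengthens chromosome ends, with mTERT, the product of Tert, as its reverse transcriptase and mTR, the product of Terc, as its RNA template. The KO mice were first-generation (G1) nulls of either gene and the WT mice their littermates, with 3 mice in each group. The series text calls the mice matched for age, and the age itself is not given in the sources used here. If the number in a label is the set of that text, set 1 holds 4 mice from 2 litters and the other arrays hold 8 mice from 4 litters. The labels carry the same extraction, labelling and hybridisation text for all 12 samples and name no day of dissection, extraction or scanning, so the litter, the handling of the mice and the processing of the arrays cannot be told apart as sources of a set. The p-values below measure the spread between these arrays, and littermates are not independent animals.

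The liver is mostly made of hepatocytes, which switch between storing and releasing fuel with feeding, fasting and the time of day, make bile acids and cholesterol, and clear foreign compounds with cytochrome P450 enzymes. Nuclear receptors such as CAR and PXR drive the last of these tasks, and glucocorticoid, glucagon and insulin signals set much of the first. Small nucleolar RNAs (snoRNAs) are short nuclear RNAs that guide chemical changes of ribosomal RNA: box C/D members guide methylation of the ribose, and H/ACA members guide the conversion of uridine to pseudouridine. Most mammalian snoRNAs lie in introns of a host gene, often 1 that encodes a ribosomal protein or a translation factor, and are trimmed out of the spliced intron.

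All arrays had the profile of liver. Values are deposited log2 intensities, called levels, on which a difference of 1 is a 2-fold change if the base of the logarithm is 2; background is set at 4.34, the 95th percentile over 1027 genes of olfactory receptors. The 4 of 5 hepatocyte markers found on the array, which include Alb, the gene of serum albumin, read 12.30 to 13.61 in every array. Array medians were 4.41 to 4.43 in set 1 and 4.37 to 4.42 in the other sets. Transcripts of other tissues were found in some arrays. A list of 25 acinar genes of the pancreas had a mean of 8.38 in mTERT KO 1, 6.45 in mTERT WT 1, 9.75 in mTR KO 1 and 3.86 in mTR WT 1. It was 7.73 in mTERT WT 2, 6.10 in mTR WT 2 and at most 3.96 in the other 6 arrays. All 11 acinar markers found on the array lay above background in the 5 arrays with a mean above 6, and 1 of the 11 did in each of the other 7. The mean of 19 skeletal muscle genes reached 6.65 in mTERT WT 1 and 6.39 in mTERT WT 3. Tert, the gene deleted in the mTERT line, read 3.95, 4.07 and 4.15 in mTERT KO 1, 2 and 3, and 4.13, 4.78 and 4.83 in mTERT WT 1, 2 and 3. It read 4.58 to 5.05 in the mTR line. Tert in mTERT WT 1 thus lay within the range of the KO arrays, below background, against its label, so the names of arrays are those of their labels throughout. The Terc probe was near background in all arrays and checks no label. Pancreas RNA was high in 3 of the 4 arrays of set 1 and 2 of the 8 others, and its part in the results below was not tested beyond the fits without those arrays and the fits with the mean of the pancreas list, or of the pancreas and muscle lists, as covariates, which gave 5656 and 2555 probes in place of the 7709 below.

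Set 1 differed from sets 2 and 3 over a large share of the transcriptome, in both directions. By limma, 7709 of 20197 probes passed an adjusted p of 0.05, which is 38.2%: 3456 probes (17.1%) were higher and 4253 (21.1%) were lower in set 1. Most differences were small. The standard deviation of the log2 difference over probes was 0.35, the 1st and 99th percentiles were −0.79 and 1.10, and 260 of the probes that passed differed at least 2-fold, 203 of them higher and 57 lower. Set 3 against set 2, tested in the same way, gave 0 probes at an adjusted p under 0.05 (0%), 1406 at an unadjusted p under 0.05, and a lowest adjusted p of 0.472, with a standard deviation of 0.16. Against set 2 alone 6692 probes passed (33.1%), and against set 3 alone 6161 (30.5%). Fits without 1 array of set 1 called 2611 to 2757 probes higher and 3220 to 3580 lower. Counts of list members from such fits, given below, are to be read beside that fall over all probes. In 6871 probes (34%) the array of set 1 lay outside the range of the other two arrays of its group, in the same direction in all 4 groups: 3088 were higher (15.3%) and 3783 lower (18.7%).

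The term for set 1 held 53% of the sum of squares within groups over the tested probes, and 56% with the pancreas and muscle lists left out, where an even share for a term would be 12.5%. The term for set 3 against set 2 held 8.24%. Over all probes, arrays of sets 2 and 3 correlated with each other at 0.985 to 0.996, arrays of set 1 with each other at 0.986 to 0.993, and arrays of set 1 with the others at 0.970 to 0.988. The spread left for the genotype comparison was smaller once the set was fitted: the median residual SD was 0.174 with groups alone and 0.131 with a term for set 1, and the median standard error of a KO against WT difference was 0.140 and 0.106. At an unadjusted p under 0.05, KO against WT then held 765 probes instead of 283 for the mTERT line and 706 instead of 195 for the mTR line. Each of these counts lay below a share of 0.05 of the 20197 tested probes, which chance alone would give on average. The rise is thus not read as an effect of genotype. By limma, 0 probes passed an adjusted p of 0.05 in either line, with or without the term.

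The mTERT and mTR lines, which share no array, each gave their own value of the shift. Both came from 1 fit that shares the estimate of the spread, so the calls of the lines are not independent of each other. The mTERT line called 4784 probes (23.7%), with 10.4% of all tested higher and 13.3% lower. The mTR line called 3943 (19.5%), with 8.43% higher and 11.1% lower. Both lines called 2767 probes, which are 57.8% of the mTERT list and 70.2% of the mTR list, and 2763 of these had the same sign in both. Across the 20197 probes the 2 shifts correlated at a Pearson r of 0.806, a description over probes that are not independent of each other, and at 0.760 over named genes without the pancreas and muscle lists. The mTERT line counts rest on 2 arrays of set 1: 1574 probes passed without mTERT KO 1 and 1589 without the array labelled mTERT WT 1. In the mTR line 883 passed without mTR KO 1 and 1393 without mTR WT 1.

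**Figure D1:**
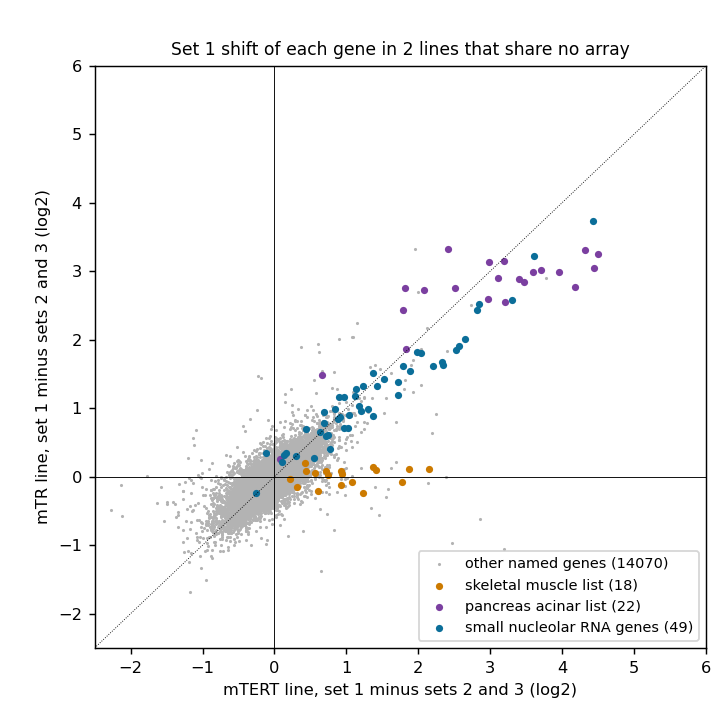
Each point is 1 of 14159 named genes tested, placed by the log2 difference of set 1 minus sets 2 and 3 in the mTERT line (horizontal) and the mTR line (vertical); the dotted line marks equal differences. Points of the snoRNA genes lie along the dotted line up to Snord16a at 4.43 and 3.73, acinar genes of the pancreas are high in both lines, and muscle genes are high in the mTERT line alone.

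Only 1 probe passed the test of a difference between the lines (0.00495%), and it belongs to Cyp4a31, a fatty acid hydroxylase of the PPARA pathway. Cyp4a31 read 6.83 in mTERT KO 1, 5.62 in mTERT WT 1, 7.81 in mTR KO 1 and 8.06 in mTR WT 1, and 7.79 to 8.98 with a median of 8.54 in the other 8 arrays. It was lower in set 1 within each group, by −2.12 for the mTERT line and −0.57 for the mTR line, a difference between lines of −1.55 (adjusted p = 0.0258). Of 12 fits that leave out 1 array, 6 called 0 probes and the fit without mTERT WT 2 called 25. The test of KO against WT shifts also gave 1 probe (0.00495%), for Dmbt1, a secreted mucosal glycoprotein, which read 7.40 in mTERT KO 1, 5.08 in mTERT WT 1, 9.34 in mTR KO 1 and 5.28 in mTR WT 1, and 3.67 to 8.06 in the other 8 arrays. The 2 arrays of set 1 labelled KO were high, as were the acinar genes of these arrays. With these 2 arrays left out, set 1 held WT arrays alone, and its difference in Dmbt1 was −2.10. The shift between KO and WT thus also holds a lower value of set 1 in WT, and its cause was not tested. The shift of Dmbt1 differed by 6.73 between KO and WT (adjusted p = 0.000821).

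snoRNA genes stood out among all kinds of gene. Of 53 snoRNA genes on the array 49 passed the filter on dim probes, and 45 of these were higher in set 1 and 0 lower; the shares among all 14159 named genes tested were 14.8% higher and 21.3% lower, 36.1% together. Their median difference was 1.13 against −0.04 over all named genes, 29 exceeded 2-fold and 9 exceeded 4-fold. Since a filter on the mean can favour genes that are high somewhere, the same was counted over all 53 without it: in 45 (84.9%) the array of set 1 lay above the other two arrays in every group, against 12.4% of all 19938 named genes. Among the named genes tested, 32.2% lay outside on the same side in every group, 13.2% higher and 19% lower. Separately, 42 passed in the mTERT line, 42 in the mTR line and 41 in both. The difference of set 3 from set 2 lay between −0.29 and 0.24 for all 49, and 0 passed. In the 81 named genes at least 2-fold higher that passed, 29 were snoRNA genes, 1 a microRNA gene and 40 protein-coding.

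Box C/D members, the methylation guides, changed most. Of 30 tested, 27 were higher and 0 lower, with a median of 1.46; the mean over the list was 6.73 to 6.97 in the arrays of set 1 and 5.24 to 5.49 in the others, with no overlap. Snord61 read 7.35 in mTERT KO 1, 7.50 in mTERT WT 1, 7.16 in mTR KO 1 and 7.21 in mTR WT 1, and the other 8 arrays read 4.56 to 4.89 with a median of 4.63. All 4 arrays of set 1 were thus more than 2 log2 units above the highest of the others, and the difference was 2.63 (SE 0.0816, adjusted p = 3.76e-09). Snord33 read 9.73, 9.66, 9.61 and 9.39 in the same order, against 6.41 to 7.13 with a median of 6.95. The 2 ranges of Snord33 did not overlap, and its difference was 2.69 (SE 0.111, adjusted p = 2.48e-08). Snord15b, Snord49a and Snord73b, with differences of 2.94, 1.90 and 1.76, likewise did not overlap in any group. The 3 box C/D members of the list that missed the threshold were chosen for naming after their values were seen: Snord14e at −0.25, Snord53 at 0.11 and Snord96a at 0.15.

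H/ACA members, the pseudouridine guides, followed with smaller differences: 18 of 19 tested were higher and 0 lower, with a median of 0.89, and list means of 5.99 to 6.22 in set 1 against 5.05 to 5.30. Snora44 read 5.43 in mTERT KO 1, 6.06 in mTERT WT 1, 5.93 in mTR KO 1 and 5.50 in mTR WT 1, while the other 8 arrays, at 3.82 to 4.29, lay below background, so that its difference of 1.70 (SE 0.107, adjusted p = 7.04e-07) may understate the fold. Snora3 read 6.65, 6.71, 6.42 and 6.43 against 4.70 to 5.23, a difference of 1.55 (SE 0.0993, adjusted p = 8.23e-07). Neither gene overlapped between the sets. Snora70, at 2.19, was the H/ACA member with the largest difference, and Snora7a, Snora69 and Snora30 differed by 1.38, 1.14 and 0.89. Of 3 small RNAs of the Cajal body, where guides of spliceosomal RNA reside, Scarna17 and Scarna13 were higher, by 1.12 and 0.41, and Scarna8, too dim to be tested, differed by −0.02.

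Other short structured RNAs moved the same way. Of 11 further small noncoding RNA genes tested, 7 were higher and 0 lower, with a median of 0.53. Rny1 encodes a Y RNA, a partner of the Ro protein. It read 6.12 in mTERT KO 1, 6.47 in mTERT WT 1, 6.74 in mTR KO 1 and 6.32 in mTR WT 1, and the other 8 arrays read 3.98 to 4.79 with a median of 4.23, so most of the other arrays lay below background. Its ranges did not overlap, and the difference was 2.15 (SE 0.134, adjusted p = 6.71e-07). Rny3, the other Y RNA gene, differed by 1.69, Rnu12, an RNA of the minor spliceosome, by 0.99, and Rpph1, the RNA part of ribonuclease P, by 0.88. Terc, itself an H/ACA RNA, read 4.48, 4.15, 4.33 and 4.12 in set 1 against 3.87 to 4.24. Its difference was 0.13 (limma, adjusted p = 0.211). The probe was near or below background in all arrays, and the mTR KO mice lack the gene. Whether Terc followed the other H/ACA RNAs can therefore not be read here.

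**Figure D2:**
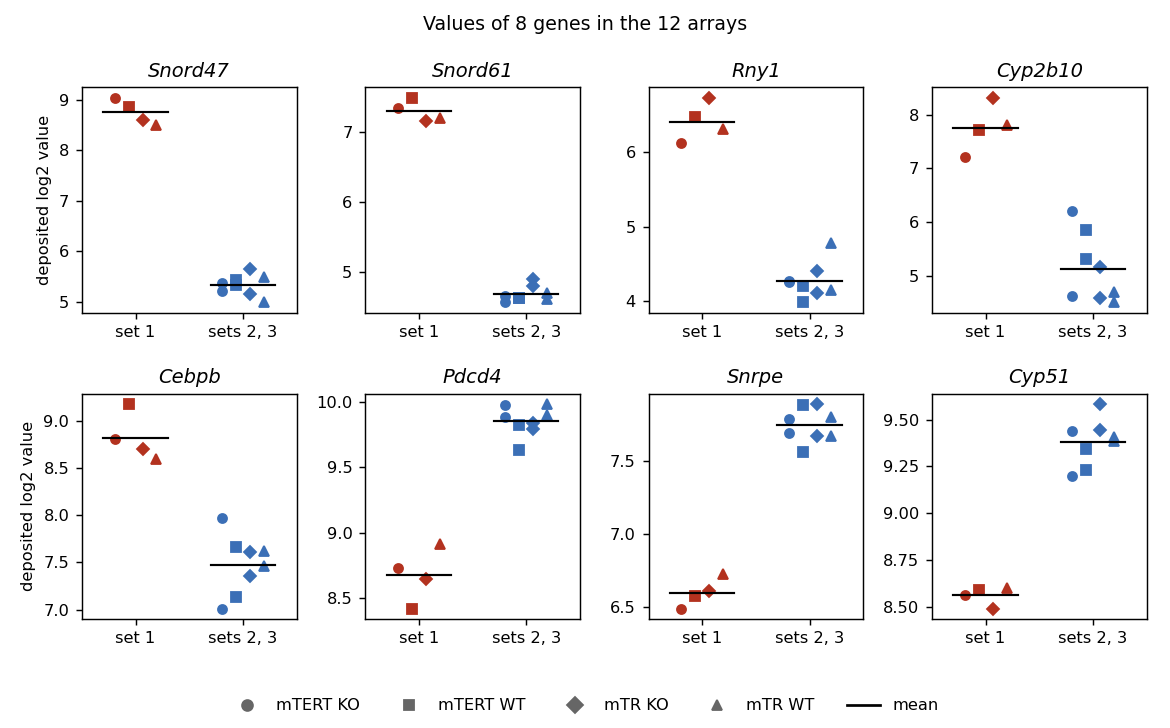
Deposited log2 values of 8 genes in each of the 12 arrays, with set 1 in red on the left and sets 2 and 3 in blue on the right of each panel; the shape gives the group and the bar the mean of each side. In all 8 panels the arrays of set 1 lie outside the range of the others, above it for Snord47, Snord61, Rny1, Cyp2b10 and Cebpb and below it for Pdcd4, Snrpe and Cyp51.

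Most host genes had a lower difference than the small RNA genes they hold. There were 28 pairs in which a small RNA gene lay within the span of a host and both were tested. In 27 of them the difference of the small RNA gene, with its sign, was above that of the host. The 24 hosts split into 8 higher, 6 lower and 10 that did not pass (14.8% and 21.3% of all named genes were higher and lower), with a median of −0.05 over the pairs against 0.90 for the small RNA genes. The 8 higher hosts, among them Rpl23a at 0.43, Rpl10 at 0.34 and Rpsa at 0.33, named after their values were seen, held snoRNA genes that were higher too. Snord61 lies in Rbmx, an RNA-binding protein gene, which read 5.78 in mTERT KO 1, 5.53 in mTERT WT 1, 5.72 in mTR KO 1 and 5.95 in mTR WT 1, and the other 8 arrays read 6.15 to 6.55, a difference of −0.55 (SE 0.0854, adjusted p = 0.000423). Snord82, at 1.28, lies in Ncl, the gene of the nucleolar protein nucleolin, which was lower by −0.83 (SE 0.0662, adjusted p = 3.99e-06). Here host and guide moved in opposite directions. Snora75, also in Ncl, differed by 0.25, so in that pair the host had the larger difference in size. Rpl4, the ribosomal protein gene that hosts Snord16a, differed by −0.10 (adjusted p = 0.199), while Snord16a differed by 4.08. Snord14e in Hspa8 was the pair in which the host had the higher value. Gas5, a host whose spliced RNA is noncoding, has 4 probes on the array that disagree, with differences of 0.61, 0.02, 0.28 and 1.49. Probes that share sequence with copies of a snoRNA elsewhere in the genome cannot be told apart here.

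**Figure D3:**
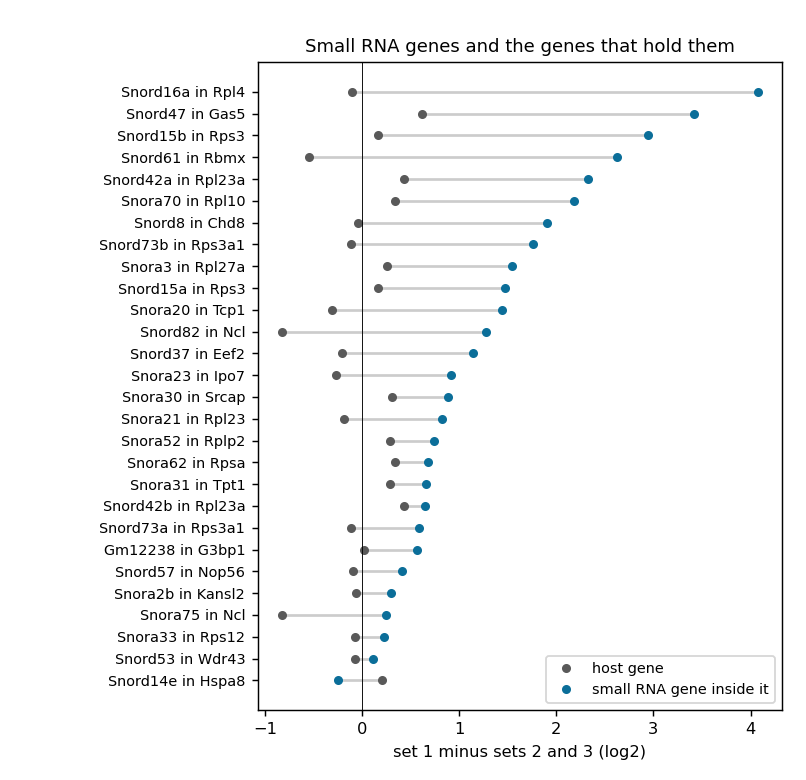
Log2 difference of set 1 minus sets 2 and 3 for 28 small RNA genes (blue) and the host gene whose span holds each (grey), sorted by the small RNA. Blue lies to the right of grey in 27 of 28 pairs, while the grey points spread around 0 from −0.83 for Ncl to 0.61 for Gas5.

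Proteins that bind these RNAs did not move together. Beside 14.8% higher and 21.3% lower of all named genes, the shares were 27.8% and 38.9% for particle proteins and 5.26% and 26.3% for the exosome. Of 18 genes for proteins of the box C/D and H/ACA particles 5 were higher and 7 lower, with a median of −0.03. Snu13, a core box C/D protein, was higher by 0.74 (SE 0.0568), as were the H/ACA proteins Nop10 by 0.61 and Nhp2 by 0.37. Dkc1, the pseudouridine synthase of the same H/ACA particle and of telomerase, was lower: it read 5.97, 6.02, 6.02 and 6.17 in set 1 against 6.66 to 7.04 with a median of 6.82, with no overlap and a difference of −0.78 (SE 0.0838, adjusted p = 3.23e-05). Of 19 genes of the nuclear RNA exosome, which trims such precursors, 1 was higher and 5 were lower, among them Dis3 by −0.55 and Exosc9 by −0.42. Of 46 genes of ribosome biogenesis 6 were higher and 8 lower, near the shares of all named genes.

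Of 18 genes for telomerase and telomere caps 2 were higher (11.1%) and 5 lower (27.8%), near the 14.8% and 21.3% of all named genes; Dkc1, Nop10 and Nhp2 are in this list too. Terf1, which binds telomere repeats, read 6.12 in mTERT KO 1, 6.41 in mTERT WT 1, 6.11 in mTR KO 1 and 6.32 in mTR WT 1, and the other 8 arrays read 6.74 to 7.11 with a median of 7.02, a difference of −0.73 (SE 0.0693, adjusted p = 1.36e-05) with no overlap. Tert read 3.95, 4.13, 4.71 and 4.58 in set 1. In every group this was lower than in the other two arrays, with a difference of −0.36 by limma (SE 0.0826, adjusted p = 0.00495). However, mTERT KO 1 and mTERT WT 1 lay below background. The mTERT KO mice lack the gene and all their arrays lay below background, so that group does not measure Tert. The array labelled mTERT WT 1 read within the range of the KO arrays, against its label.

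microRNA genes differed less. Of 158 tested, 54 were higher (34.2%) and 12 lower (7.59%) with a median of 0.15. Of 310 tested olfactory receptor genes, which liver is not known to use, 114 were higher (36.8%) and 4 lower (1.29%), with a median of 0.17. These shares were 14.8% and 21.3% of all named genes. Many of both kinds are dim, so the filter can favour members that are high in set 1. Without it, 83 of 300 microRNA genes were higher and 16 lower, and 340 of 1027 olfactory receptor genes were higher and 8 lower. The same fit over all 28853 probes gave 4341 higher and 4540 lower. With the filter but without mTR WT 1, 75 olfactory receptor genes were higher. The mean over all 1027 olfactory receptor genes was 3.86 to 3.93 in set 1 and 3.69 to 3.78 in the other sets, a difference of 0.14 with no overlap (exact permutation within groups, two-sided p = 0.0123, the smallest that 81 assignments allow, and 0.0861 after Benjamini-Hochberg adjustment over 7 array measures). The 1344 protein-coding genes with mean levels of 3.90 to 4.03 had a median of 0.00, and the 25th percentile of the arrays differed by 0.03. The microRNA genes named by the rule are shown with the mature sequences that RefSeq (GRCm38.p6) gives for them, bases 2 to 8 of each, the seed that pairs with target RNAs, in capitals. The 3 genes with an entry share no seed; the probes cover the gene and do not tell its arms apart.

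mmu-miR-135a-5p: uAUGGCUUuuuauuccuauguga
mmu-miR-135a-1-3p: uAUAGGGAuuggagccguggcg
mmu-miR-32-5p: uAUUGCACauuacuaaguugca
mmu-miR-32-3p: cAAUUUAGugugugugauauu
mmu-miR-188-5p: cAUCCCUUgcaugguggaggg
mmu-miR-188-3p: cUCCCACAugcaggguuugca

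Mir135a-1 (chr9:106154140-106154200 for the span of its arms) read 6.71 in mTERT KO 1, 6.22 in mTERT WT 1, 6.01 in mTR KO 1 and 6.06 in mTR WT 1, and the other 8 arrays read 4.50 to 4.88 with a median of 4.74. All arrays lay above background, the ranges did not overlap, and the difference was 1.54 (SE 0.123, adjusted p = 3.99e-06). Mir669b, which is named only, differed by 0.79. Mir32 read 4.34 to 4.59 in set 1 and 3.61 to 3.89 in the other arrays, all below background and below the limit of the filter on dim probes. It was thus tested only because it was high in set 1, and its difference is not read as a result. Mir188 was lower by −0.52 (SE 0.0593), but its levels of 3.80 to 3.96 in set 1 lay below background and those of the other arrays, 4.30 to 4.49, around it.

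Among protein-coding genes the shift followed the span of the gene. From the shortest to the longest of 10 bins of 13437 genes, the share that was higher in set 1 went from 25.4% to 7.51% and the share that was lower from 8.26% to 28.3%. In the shortest bin (0.165 to 3.33 kb from start to end) the median difference was 0.07, and in the ninth (65.2 to 114 kb) it was −0.11. The Spearman correlation of span with the difference was −0.240 across genes, which are not independent replicates, and 0.00338 for set 3 minus set 2. It was −0.211 without ribosomal, respiratory chain, olfactory and vomeronasal receptor genes, and −0.311, −0.211 and −0.207 within 3 equal ranges of rank by the GC content of the 250 bases before the start, known for 81.3% of the genes. The mean level had a weaker relation with the difference, at −0.121.

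**Figure D4:**
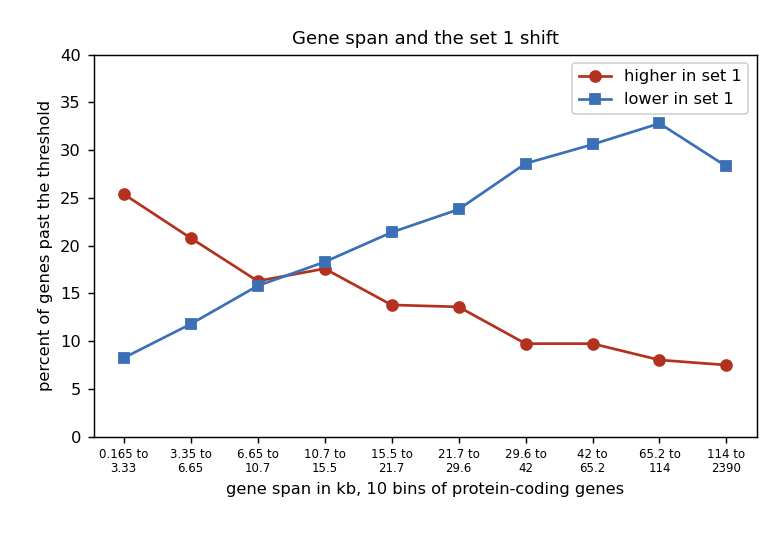
Percent of protein-coding genes that passed an adjusted p of 0.05 as higher (red circles) or lower (blue squares) in set 1, in 10 bins of 1343 or 1344 genes by gene span in kb. The red line falls from 25.4% to 7.51% and the blue line climbs from 8.26% to 32.8% in the ninth bin.

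Of 60 ribosomal protein genes, whose median span is 3.27 kb, 21 were higher (35%) and 10 lower (16.7%). Rpl37a read 9.85 in mTERT KO 1, 9.87 in mTERT WT 1, 9.93 in mTR KO 1 and 9.81 in mTR WT 1, and the other 8 arrays read 8.51 to 8.80 with a median of 8.65, a difference of 1.21 (SE 0.0684, adjusted p = 2.78e-07), and Rpl41 differed by 0.82. Of 78 nuclear genes of the respiratory chain 18 were higher (23.1%) and 13 lower (16.7%), beside 14.8% and 21.3% of all named genes. The complex I subunit Ndufs8 read 8.33, 8.47, 8.43 and 8.41 against 7.11 to 7.38 with a median of 7.27, higher by 1.15 (SE 0.0623, adjusted p = 2.21e-07); Ndufs5 and Uqcr11 followed at 1.15 and 0.97. A second probe of Uqcr11, with a mean of 7.88, gave 0.34 (SE 0.0856). The medians of the ribosomal protein and respiratory chain lists were 0.05 and 0.01, close to 0. Single genes of mitochondria were also lower: the mitochondrial ribosomal proteins Mrps18c and Mrps15 were lower by −0.69 and −0.61 in a list with 12 higher and 16 lower of 77.

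The 12 genes with the largest higher difference by the naming rule were led by Cyp2b10, Mfsd2a, Zbtb16 and Tomm5. Cyp2b10, the P450 enzyme best known as a target of CAR, read 7.20 in mTERT KO 1, 7.71 in mTERT WT 1, 8.32 in mTR KO 1 and 7.80 in mTR WT 1, and the other 8 arrays read 4.50 to 6.21 with a median of 4.93. Its sets did not overlap, and the difference was 2.64 (SE 0.306, adjusted p = 5.34e-05). Mfsd2a, a transporter of lysophospholipids that fasting induces in liver, differed by 2.34 (SE 0.595), although it spread from 4.92 to 8.69 within sets 2 and 3. Zbtb16, a transcription factor induced by glucocorticoids, read 8.59, 8.75, 8.60 and 7.64 against 5.80 to 6.98 with a median of 6.11, a difference of 2.12 (SE 0.249, adjusted p = 6.08e-05). Tomm5, a small subunit of the mitochondrial import pore, read 6.79 to 7.02 in set 1 against 4.69 to 5.40, a difference of 1.90 (SE 0.114, adjusted p = 4.96e-07). Both were without overlap.

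The rest of these 12 differed by 1.35 to 1.61. They were Lpin1, a phosphatidate phosphatase induced by fasting; Pfkfb3, which makes an activator of glycolysis; Tmc7; Dusp1, a stress-induced phosphatase of MAP kinases; Sp140, a nuclear body protein; Slc45a3; Plin5, a lipid droplet protein; and Cebpb. Cebpb, a transcription factor of gluconeogenesis and the acute phase, read 8.81 in mTERT KO 1, 9.19 in mTERT WT 1, 8.71 in mTR KO 1 and 8.60 in mTR WT 1, and the other 8 arrays read 7.01 to 7.97 with a median of 7.54. Its difference was 1.35 (SE 0.17, adjusted p = 0.000101). Pfkfb3, Lpin1 and Dusp1 also varied by more than 1 log2 unit among sets 2 and 3. The next gene in order, Hspb1, differed by 1.25 and fell outside the rule.

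The 12 with the largest lower difference included Pdcd4 and Snrpe. Pdcd4, an inhibitor of translation, read 8.73 in mTERT KO 1, 8.42 in mTERT WT 1, 8.64 in mTR KO 1 and 8.91 in mTR WT 1, and the other 8 arrays read 9.63 to 9.99 with a median of 9.87, a difference of −1.18 (SE 0.0653, adjusted p = 2.56e-07). Snrpe, a core protein of spliceosomal particles, read 6.49, 6.58, 6.61 and 6.73 against 7.56 to 7.89 with a median of 7.74, a difference of −1.15 (SE 0.0778, adjusted p = 1.23e-06). Neither gene overlapped between the sets. Tut4, which adds uridines to small RNA precursors, was lower by −1.11, the transcription factor Hhex by −1.18 and the P450 enzyme Cyp2c68 by −1.09. Cyp4a31, Resf1, Zfp825, Purb, Arrdc3, Trim12a and Tbc1d8b completed the 12, between −1.34 and −1.02; for Purb a dimmer second probe gave −0.02. For Zfp825 a second probe, with a mean of 7.12, gave −0.72. The next gene in order, Gbp7, differed by −1.01.

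Genes of fasting and gluconeogenesis were the metabolic list with the most members higher, 51.6% beside 14.8% of all named genes. Of 31 tested 16 were higher and 1 lower (G6pc at −0.28, named after its value was seen), with a median of 0.33 and list means of 8.08 to 8.41 in set 1 against 7.46 to 8.08. Klf15, a transcription factor of amino acid use in fasting, read 8.93 in mTERT KO 1, 8.86 in mTERT WT 1, 9.06 in mTR KO 1 and 8.90 in mTR WT 1, and the other 8 arrays read 7.80 to 8.49 with a median of 8.22, a difference of 0.78 (SE 0.141, adjusted p = 0.00117). Trib1 and Foxo3 differed by 0.72 and 0.53, the clock gene Per1 by 1.05 (SE 0.212) and Pck1, the gene of an early enzyme of gluconeogenesis, by 0.57 (SE 0.142). Without the array labelled mTERT WT 1, or without mTR KO 1, 10 of the 31 were higher. G6pc, the last enzyme of the pathway, was no longer called in 10 of the 12 fits without 1 array.

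Other fuel genes were mixed, where 14.8% of all named genes were higher and 21.3% lower. These shares were 38.9% and 11.1% for glycolysis and glycogen, 22.2% and 11.1% for lipogenesis, and 7.69% and 28.2% for the PPARA list. Of 18 genes of glycolysis and glycogen 7 were higher and 2 lower: Ppp1r3b, which targets a phosphatase to glycogen, was higher by 0.50, and the liver glycogen synthase gene Gys2 was lower by −0.41. Of 27 lipogenic genes 6 were higher and 3 lower, led by Mlxipl, the carbohydrate-responsive transcription factor ChREBP, at 8.80, 8.51, 8.44 and 8.86 against 7.67 to 8.01, a difference of 0.80 (SE 0.0959, adjusted p = 6.73e-05). Its sets did not overlap. Of 39 genes of PPARA and fatty acid oxidation 11 were lower and 3 higher, among them Acadl by −0.50 and Decr1 by −0.46, both enzymes of beta-oxidation. That count fell to 5 without mTERT KO 1, to 5 without the array labelled mTERT WT 1, where the list's median became 0.01, and to 4 without mTR KO 1.

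Genes of cholesterol synthesis were more often lower (47.8%) than all named genes (21.3%). Of 23 tested 11 were lower and 1 higher, with a median of −0.30, and the list means of 8.62 to 8.80 in set 1 did not overlap those of 8.84 to 9.22 in the other arrays. Cyp51, the lanosterol demethylase, read 8.56 in mTERT KO 1, 8.59 in mTERT WT 1, 8.49 in mTR KO 1 and 8.60 in mTR WT 1, and the other 8 arrays read 9.20 to 9.59 with a median of 9.40, a difference of −0.82 (SE 0.0729, adjusted p = 8.46e-06). Hmgcs1, which makes the precursor HMG-CoA, read 9.72, 9.84, 9.78 and 9.77 against 10.29 to 10.73 with a median of 10.37, a difference of −0.65 (SE 0.0811, adjusted p = 9.19e-05). In both genes all 4 arrays of set 1 lay below every other array. Idi1 and Sc5d were lower by −0.75 and −0.49. The 1 higher member was Srebf2, which encodes the transcription factor of the pathway, at 0.33, named after its value was seen.

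The sterol element that this factor binds was searched for as TCACNCCAC on both strands of the 250 bases before the start. It was found in 1 of the 19 cholesterol genes with a RefSeq (GRCm38.p6) promoter and in 1.04% of all 27025 promoters. That gene is Hmgcs1, a named member of the list, and its match is shown over 89 bases of its forward strand (chr13:119690174-119690262), with the match, 137 to 129 bases before the start, in capitals. The match is a description of these letters and not a site of binding.

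Hmgcs1: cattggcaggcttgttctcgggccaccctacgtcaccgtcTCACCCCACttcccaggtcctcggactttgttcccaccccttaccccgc

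Bile acid genes passed at shares near those of all named genes, 16.7% higher and 23.3% lower beside 14.8% and 21.3%. Of the genes of CAR and PXR response 18.4% were higher and 39.5% lower. Cyp7a1, the rate-limiting enzyme of bile acid synthesis, was lower by −0.98 (SE 0.136), Klb, the co-receptor of the hormone that represses it, by −0.83 and the bile salt pump gene Abcb11 by −0.39, in a list with 7 lower and 5 higher of 30. The peroxisomal thioesterase gene Acot8 was higher by 0.44. Among 38 genes of CAR and PXR response, Cyp2b10 was 1 of 7 that were higher while 15 were lower, so the list did not follow its best known member. Nr1i2, the gene of PXR itself, read 8.38 in mTERT KO 1, 8.33 in mTERT WT 1, 8.34 in mTR KO 1 and 8.37 in mTR WT 1, and the other 8 arrays read 7.50 to 7.82 with a median of 7.72, a difference of 0.68 (SE 0.0703, adjusted p = 2.59e-05), and Rxra, its partner, differed by 0.66. Cyp2c39 was lower by −0.51. Without the array labelled mTERT WT 1 the lower members were 9.

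Growth hormone targets and sex-biased genes were lower in 8 of 25 (32%) and higher in 1 (4%), beside 21.3% and 14.8% of all named genes. Ghr, the growth hormone receptor gene, was lower by −0.55 (SE 0.0764), Igf1, its main endocrine target, by −0.50 (SE 0.0832) and the male-biased transporter gene Slco1a1 by −0.44. The 1 higher member was Gstp1, a glutathione transferase that is abundant in male liver, which read 13.33 in mTERT KO 1, 13.29 in mTERT WT 1, 13.12 in mTR KO 1 and 13.16 in mTR WT 1, and the other 8 arrays read 12.33 to 12.56, a difference of 0.78 (SE 0.0642, adjusted p = 5.02e-06). Its sets did not overlap. The lower members were 4 without mTERT KO 1 and 5 without the array labelled mTERT WT 1 or without mTR KO 1.

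Genes of the acute phase were higher in 12 of 33 (36.4%) and lower in 1 (3.03%), beside 14.8% and 21.3% of all named genes. Their median was 0.23, with list means of 9.12, 9.96, 8.91 and 8.88 in set 1 against 8.64 to 9.02. In the mTERT line 13 members passed with a median of 0.35, and in the mTR line 1 with a median of 0.04. No list was tested for a difference between lines. Hamp, the gene of the iron hormone hepcidin, was higher by 0.93 (SE 0.169), Lbp, which binds bacterial lipopolysaccharide, by 0.54 and Lrg1 by 0.56. Lcn2, an antibacterial protein of neutrophils and injured hepatocytes, read 9.36 in mTERT WT 1, 5.84 to 6.70 in the rest of set 1 and 5.25 to 6.55 in the other sets, a difference of 1.41 (SE 0.364). mTERT WT 1 was the high array in this list, and without it 6 members were higher and the median was 0.10. Interferon-response genes were lower in 9 of 29 (31%) and higher in 0. The list's median was −0.47 in the mTERT line, where 7 members passed, and 0.01 in the mTR line, where 1 passed. Ifih1, a sensor of viral RNA, was lower by −0.72, Iigp1 by −0.94, Oasl2 by −0.73 and Ddx58 by −0.47. Sets 2 and 3 held a high array here, mTERT WT 3 with a list mean of 7.10 against 5.98 to 6.37 in the other 7, while set 1 lay at 5.90 to 6.00. Without mTERT WT 3, 10 were lower and 3 higher with a median of −0.08 in place of −0.21, and against set 2 alone 4 were lower and 1 higher with a median of −0.05. The count of lower members was 4 without mTERT KO 1 and 5 without the array labelled mTERT WT 1 or without mTR KO 1.

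Cell type markers gave small differences. Of all named genes 14.8% were higher and 21.3% lower. Of the endothelial genes 6.25% were higher and 43.8% lower, and of the pericentral genes 5.26% and 36.8%. Of the Kupffer cell and macrophage genes 12.5% were higher and 0% lower, and of the secreted hepatocyte proteins 33.3% and 5.56%. Sinusoidal endothelial genes were lower in 7 of 16 and higher in 1, with a median of −0.25; Tek, an endothelial receptor, differed by −0.63, the mannose receptor gene Mrc1 by −0.38, Dnase1l3 by −0.37 and Fcgr2b by −0.33. The 1 higher member of that list was Stab1 at 0.38, named after its value was seen. In bulk liver, fewer cells of a type and less RNA per cell cannot be told apart. Of 16 Kupffer cell and macrophage genes 2 were higher and 0 lower, with a median of 0.03 and 9 members above 0. The lowest member differed by −0.47. The largest difference was that of the Kupffer cell lectin gene Clec4f. It read 8.48, 8.67, 8.31 and 8.38 against 7.55 to 8.05, a difference of 0.68 (SE 0.0781). Pericentral hepatocyte genes were lower in 7 of 19 and higher in 1, with Rgn at −0.39 and Cyp1a2 at −0.36, and that count fell to 4 without mTERT KO 1 and to 3 without mTR KO 1 or without mTR WT 1. The endothelial count was 4 without mTERT KO 1. Secreted hepatocyte proteins were higher in 6 of 18 and lower in 1, with the apolipoprotein genes Apoc3 and Apoa2 at 0.43 and 0.33, while Alb differed by −0.07 (adjusted p = 0.321). The acinar genes of the pancreas, high in single arrays, passed in 3 of 22: Cela1, Reg1 and Prss3 differed by 3.00, 2.87 and 1.07, each with overlap between the sets. Calls of Cela1 were lost in 8 of the 12 fits without 1 array and those of Reg1 in 6, so these differences rest on single arrays. Of 18 muscle genes 0 passed.

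Splicing factor genes were more often lower (32.1%) than all named genes, of which 21.3% were lower and 14.8% higher. Of 53 splicing factor genes 17 were lower and 7 higher: Srsf10 read 7.23 in mTERT KO 1, 7.34 in mTERT WT 1, 7.24 in mTR KO 1 and 7.29 in mTR WT 1, and the other 8 arrays read 7.92 to 8.22 with a median of 8.02, a difference of −0.76 (SE 0.0641, adjusted p = 6.04e-06), and Hnrnpd and Luc7l3 differed by −0.71 and −0.57. A dimmer second probe of Srsf10 gave −0.48 (SE 0.0832). In the list of the endoplasmic reticulum stress response 4 of 28 were higher (14.3%) and 6 lower (21.4%), near the shares of all named genes. The ubiquitin ligase gene Syvn1 and the stress transcription factor gene Ddit3 were higher by 0.93 and 0.72, and the chaperone gene Pdia3 was lower by −0.59. Clock was lower by −0.47, and other genes of daily rhythm, Nfil3 and Usp2, were higher by 0.70 and 0.79. Of the 20 genes in their list 4 were higher (20%) and 4 lower (20%). The iron regulatory protein gene Ireb2 was lower by −0.82 and the heme oxygenase gene Hmox1 higher by 0.56. The p53 targets Ccng1 and Mdm2 were lower by −0.40 and −0.33, among 3 higher (13%) and 4 lower (17.4%) of 23, near the shares of all named genes.

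**Figure D5:**
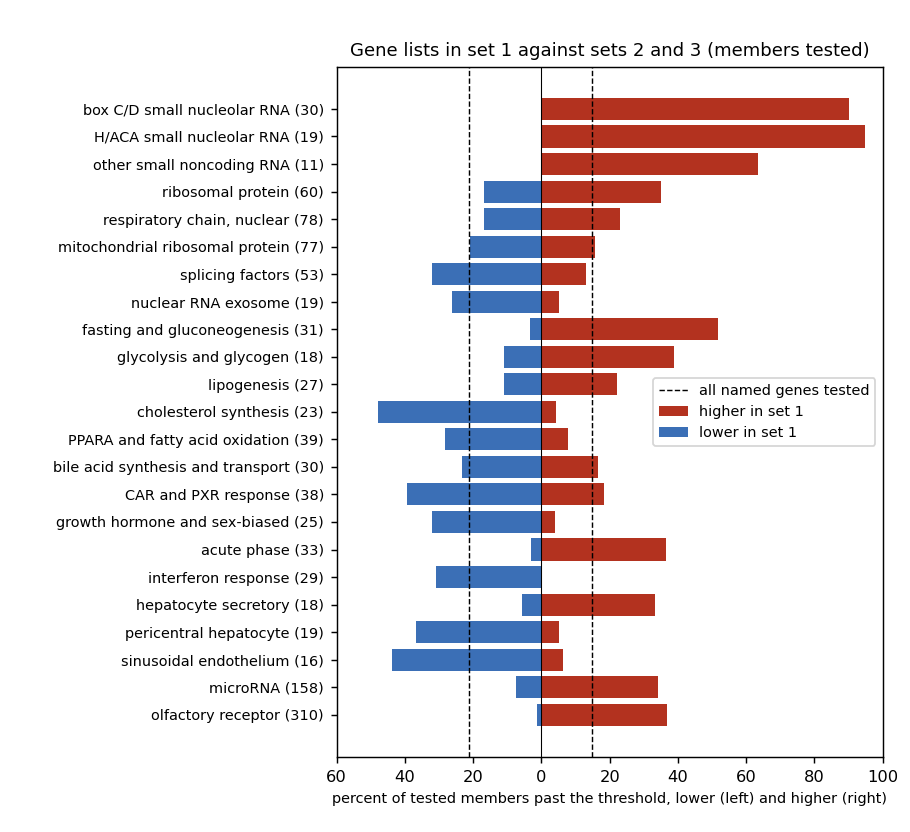
Percent of tested members of 23 gene lists that passed an adjusted p of 0.05 as lower (blue, to the left) or higher (red, to the right) in set 1, with the number tested in brackets; dashed lines mark the 21.3% lower and 14.8% higher of all named genes. The snoRNA lists reach 90% and 94.7% higher, cholesterol synthesis 47.8% lower and fasting and gluconeogenesis 51.6% higher.

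The differences of snoRNA genes stayed close in size without the arrays that carried pancreas RNA. With those 5 arrays left out, only mTR WT 1 remained of set 1 and 272 probes passed. Of the box C/D list 17 of 30 still passed as higher, with a median of 1.33, and of the H/ACA list 7 of 19, with a median of 0.92. In the cholesterol list 0 passed under that setting, with a median of −0.34, and in the fasting list 0, with a median of 0.19. With the mean of the pancreas list as a covariate, 27 and 16 of the snoRNA genes, 8 of the cholesterol genes in the lower direction and 9 of the fasting genes in the higher direction passed. Without the 5 arrays the median of the acute phase list was −0.01, that of the interferon list 0.02 and that of the PPARA list 0.01, so each changed sign. With the pancreas and muscle list means as covariates, the lower members went from 15 to 0 in the CAR and PXR list, from 7 to 0 in the endothelial list, from 8 to 1 in the growth hormone list and from 11 to 5 in the cholesterol list, and the higher members from 12 to 2 in the acute phase list and from 16 to 6 in the fasting list. Under these covariates 25 of the box C/D and 14 of the H/ACA genes passed as higher. Over all 20197 tested probes, the higher went from 3456 to 1259 and the lower from 4253 to 1296. The fall in the lists is thus not particular to them. The medians were then 0.52 for the fasting, 0.24 for the acute phase and −0.26 for the cholesterol list, against 0.33, 0.23 and −0.30 in the main fit. Those of the CAR and PXR, endothelial and growth hormone lists were −0.10, −0.16 and −0.04, against −0.13, −0.25 and −0.14. Counts thus fell also in lists whose median stayed close or grew.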

How the data were processed

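Liver RNA of 12 mice was measured on 1 array each. The deposited table holds 28853 probes with values of 2.62 to 13.83, which were taken as log2 from that range. GCOS 1.4, Affymetrix Expression Console and PLIER are named in the submitters' processing notes, and the base of the logarithm, the normalization and any added constant are not given in the sources used here. Of the probes, 21789 carry 1 gene symbol, 1621 several and 5443 none, and only the first were named.

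The values were used as deposited. The 30th percentile of probe means (3.90) was the lower limit for testing, which left 20197 probes. limma 3.58.1 in R 4.3.3 (lmFit, eBayes) fitted the 4 group means and a term for set 1, with 7 residual degrees of freedom, and p-values were adjusted by Benjamini-Hochberg at 0.05. Terms for line, for KO or WT, and for set 3 against set 2 were tested likewise. Level differences between arrays were tested by exact permutation within groups. For a gene with several probes the probe with the highest mean was used. The scripts were tested on simulated data.

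Named genes are the 12 per direction with the largest difference that passed, lay outside the range of the other arrays in all 4 groups and exceeded background, with predicted, receptor, small RNA and other-tissue genes left out; up to 4 members of each list (6 for snoRNA lists) with the smallest p; and a few fixed genes. The members and lists were chosen with earlier results of these data known, so no list was tested as a set. The host of a small RNA gene is a gene whose span holds it, with strand not considered. Alternatives were another filter, scaling, moderation, weights, threshold, probe choice, litter as a block or unit, covariates for pancreas and muscle, either other set alone, and leaving out arrays. The number of arrays limits the precision.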

Additional observations from a re-analysis of the deposited data

Results flagged for a closer look

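Among the genes and lists described, single arrays stood apart from the rest of their side more than a 95% critical value of Dixon's test allows in 24 of 394 groups of arrays (6.09%), where chance gives about 1 in 20. The array labelled mTERT WT 3 accounted for 8 of them. In it, the interferon-response genes Iigp1, Gbp7 and Oasl2 read 11.91, 9.06 and 6.51, the highest of sets 2 and 3, and the list means were 7.10 for the interferon response, 7.43 for class II antigen presentation, 4.10 for neutrophil genes and 6.39 for skeletal muscle, with the lowest mean of the mitochondrial genome at 12.26.

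Within set 1, the array labelled mTERT WT 1 was the highest for Rpph1 at 12.41, Lbp at 10.33 and Oasl2 at 4.96. mTR WT 1 was the lowest for Zbtb16 at 7.64 and for Lpin1 at 10.17. mTR KO 1 was the lowest for Pdia3 at 10.17 and the highest for Snord53 at 4.58 and for pancreas islet genes at 4.33. Within sets 2 and 3, mTERT WT 2 was the highest for the acinar genes Reg1 and Prss3 at 6.43 and 4.88 and the lowest for Snu13 at 8.43. mTR KO 3 was the lowest for Terc at 3.87 and the highest for Cyp1a2 at 12.24. mTERT KO 3 was the lowest for Snord33 at 6.41, mTERT KO 2 the highest for Snord53 at 5.11 and mTR KO 2 the lowest for Scarna13 at 4.56.

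The shift of set 1 differed by limma between the lines for Cyp4a31, by −1.55, and between KO and WT for Dmbt1, by 6.73. Some list means moved in opposite directions in the arrays labelled KO and WT, a difference that was not tested. The shift in KO was 0.02 for lymphoid genes, −0.05 for Kupffer cell and macrophage genes, −0.11 for stellate cell genes and 0.40 for bile duct genes, with −0.10, 0.12, 0.04 and −0.39 in WT. It was −0.09 for particle proteins, −0.02 for snoRNA host genes, −0.10 for ribosome biogenesis, −0.05 for the proteasome and −0.05 for lipogenesis, with 0.05, 0.07, 0.04, 0.06 and 0.23 in WT. Between lines, the mTERT and mTR shifts were 0.19 and −0.07 for endoplasmic reticulum stress, −0.10 and 0.09 for CAR and PXR response, and −0.16 and 0.06 for proliferation, also not tested.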

How the results depend on the processing

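The 7709 probes became 5064 with 1 probe per gene (fewer probes tested), 2555 with pancreas and muscle means as covariates, 272 without the 5 arrays with pancreas transcripts (1 array of set 1 left, assumed to vary like the others) and, chosen after seeing the data, 3383 without mTERT KO 1 and mTR KO 1. Leaving out each array gave 5831 to 7660. The block on the pairing by litter gave 7135 (replicate block, litter correlation 0.0938). Within the mTERT line (4784), 1 probe per gene gave 3102, litter means 2266, both covariates 980 and leaving out each array 1574 to 4766; within the mTR line (3943) these were 2389, 1671, 2518 and 883 to 4217. The difference between lines (1 probe) gave 0 after centring, 7 with trend and robust moderation, 3 with array weights, 4 at an adjusted p under 0.10, 0 with litter means, 7 with the pancreas covariate, 38 with both and 0 to 25 without an array. KO against WT shifts (1 probe) gave 0, 3 and 0 with trend and robust moderation, the pancreas covariate and both, and 1 to 43 without an array. Set 3 against set 2 gave 0 under all settings run. Where no construction is named, the cause was not tested.

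Signs turned for Dmbt1, not called in the main comparison, at −0.52 with the pancreas covariate, −1.34 with both, −1.82 without the 5 arrays, −2.10 without mTERT KO 1 and mTR KO 1, and −0.16 to 2.53 leaving out 1 array. Terc gave −0.036, −0.10 and −0.023 with both covariates, without the 5 arrays and without those 2 KO arrays, Snord14e 0.18 and 0.13 under the first 2 of these, and Reg1 −0.028 without the 5 arrays. KO against WT with litter means was not run, since a litter mean averages both.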
